A study of Mus musculus with 15 samples.

Results

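The unfolded protein response was followed through 10 genes in mouse B cells. The cells had grown with DMSO as solvent or with GSK-J4, a compound that blocks KDM6A and KDM6B, the enzymes that remove methyl groups from lysine 27 of histone H3. Of the 10 genes, 4 encode the stress sensors of the endoplasmic reticulum (ER) or a close relative of one (Ern1, Atf6, Atf6b and Eif2ak3), and 6 encode early targets of the response (Hspa5, Dnajb9, Dnajc3, Sdf2l1, Herpud1 and Creld2). They were chosen by gene symbol from the 21761 genes of the deposited table, with earlier results of these data known. All 10 were found, and all 10 passed the filter on low values.

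B cells of the spleen that lack CD43 were taken from female C57BL/6J mice, whose age is not given in the sources used here. They were grown for 3 days with LPS, IL-2 and IL-5 together with 250 nM GSK-J4 or DMSO. Cells carrying CD138 (labelled plasmablasts) or GL7 (labelled activated B cells) were then enriched with magnets, and naive cells were CD43- cells left unstimulated and untreated. Libraries of poly(A) RNA came to 3 in each of 5 groups, namely CD138+ GSK-J4 (numbered 1, 2 and 4), CD138+ DMSO, GL7+ GSK-J4, GL7+ DMSO and naive. Magnetic enrichment leaves other cells in a fraction, and a bulk library cannot tell fewer cells of a type from less RNA per cell.

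When unfolded proteins build up in the ER, the sensors in its membrane start a response that raises folding capacity and lowers the load of new protein. IRE1 (Ern1) splices the Xbp1 transcript, ATF6 is cut in the Golgi to free a transcription factor, and PERK (Eif2ak3) phosphorylates the initiation factor eIF2α, which slows translation and favours translation of ATF4. In the B lineage the IRE1 and XBP1 arm is known for the growth of the secretory apparatus in plasma cells, whereas PERK is known to be dispensable for antibody secretion in mice. Transcript levels report on none of these activation steps directly. The table has 1 value per gene, so spliced and unspliced Xbp1 were not told apart.

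The targets were chosen as members for their known induction by ATF6 and XBP1, and the promoters of 4 of the 6 hold an element through which this is known to work. The ER stress response element (ERSE, searched as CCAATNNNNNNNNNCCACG on both strands) joins a CCAAT box, bound by NF-Y, to a CCACG core, bound by ATF6. A compact form (ERSE-II, searched as ATTGGNCCACG) is known from HERPUD1. Windows from 250 bases before to 50 bases after the transcript start came from RefSeq on GRCm38.p6, in which 9 of the 10 genes had an entry and Atf6 had none. ERSE stood in the windows of Hspa5, Dnajc3 and Creld2, against 0.137% of 27025 genes. ERSE-II stood in that of Herpud1, against 0.0444% of genes. The windows of Dnajb9 and Sdf2l1 held only the CCACG core, which 35.5% of genes hold on one strand or the other, matches inside ERSE or ERSE-II being counted as well. The window of Ern1 held 1 core, and those of Atf6b and Eif2ak3 held none. The motif TGACGTGG, another site of ATF6 and XBP1, was in none of the 9 windows and in 0.714% of genes. A match describes letters only and is not a measured binding site.

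The 150 bases before the start of each target are shown to let the elements be compared, 5′ to 3′ on the gene's own strand. Capitals mark ERSE or ERSE-II where there is one, and the CCACG core (CGTGG on the other strand) where there is none. The windows lie at chr2:34771940-34772089 (+) for Hspa5, chr14:118937782-118937931 (+) for Dnajc3, chr15:88819496-88819645 (+) for Creld2, chr8:94386279-94386428 (+) for Herpud1, chr12:44210069-44210218 (-) for Dnajb9 and chr16:17132384-17132533 (-) for Sdf2l1.
Hspa5: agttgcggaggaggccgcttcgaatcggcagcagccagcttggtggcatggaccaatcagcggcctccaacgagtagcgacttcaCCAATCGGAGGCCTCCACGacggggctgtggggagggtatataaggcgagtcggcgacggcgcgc
Dnajc3: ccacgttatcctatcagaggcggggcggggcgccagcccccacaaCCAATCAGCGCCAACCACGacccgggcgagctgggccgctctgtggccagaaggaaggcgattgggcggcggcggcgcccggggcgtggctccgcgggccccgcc
Creld2: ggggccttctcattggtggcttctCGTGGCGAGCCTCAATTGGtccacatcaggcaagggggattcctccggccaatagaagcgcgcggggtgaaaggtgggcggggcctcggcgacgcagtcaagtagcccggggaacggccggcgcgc
Herpud1: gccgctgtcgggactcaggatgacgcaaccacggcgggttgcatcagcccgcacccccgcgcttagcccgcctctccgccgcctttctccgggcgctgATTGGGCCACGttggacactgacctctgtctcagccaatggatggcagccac
Dnajb9: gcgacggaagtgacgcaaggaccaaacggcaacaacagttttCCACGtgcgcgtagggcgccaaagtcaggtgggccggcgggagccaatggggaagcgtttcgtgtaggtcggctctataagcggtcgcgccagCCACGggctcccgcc
Sdf2l1: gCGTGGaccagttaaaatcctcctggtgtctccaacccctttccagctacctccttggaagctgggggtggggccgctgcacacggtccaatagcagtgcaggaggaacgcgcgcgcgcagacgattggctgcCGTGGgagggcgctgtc
The element of Hspa5 ran from base -65 to base -47 before the start and that of Dnajc3 from -105 to -87. In Creld2 it lay on the opposite strand, from -126 to -108. The compact form in Herpud1 ran from -52 to -42.

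**Figure D1:**
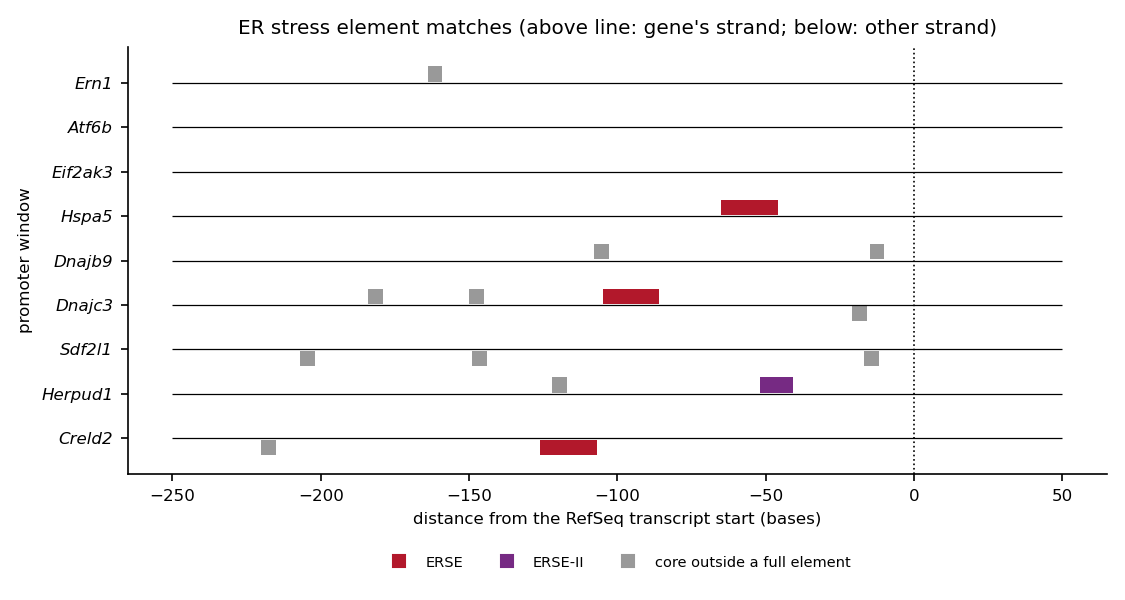
Matches to ERSE (red), ERSE-II (purple) and the CCACG core outside a full element (grey) in the promoter windows of 9 genes, plotted by distance in bases from the RefSeq start; blocks above a line are on the gene's strand and blocks below it on the other. Full elements stood in 4 of the 6 targets, and no full element was found in the windows of Ern1, Atf6b and Eif2ak3.

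The deposited values are RPKM, reads per kilobase of gene and per 1000000 reads of the library, so levels may be compared between genes. Library depth, recovered from the values, ran from 6241139 to 7712446 reads in CD138+ GSK-J4, 9676805 to 11635793 in CD138+ DMSO, 9174421 to 12213327 in GL7+ GSK-J4, 9806592 to 11519215 in GL7+ DMSO and 1318000 to 13189862 in naive cells. The shallowest library, naive replicate 2, gave Sdf2l1 17 reads, Ern1 27 and Creld2 38, the thinnest support for any member. The plasmablast marker Sdc1, which encodes CD138, averaged 40.1 and 32.6 RPKM in the CD138+ GSK-J4 and DMSO groups, 2.88 and 1.37 in the GL7+ GSK-J4 and DMSO groups and 3.13 in naive cells, so the CD138+ fraction matched its label. GL7 is a glycan epitope with no transcript of its own to check. Differences below are log2 changes of RPKM + 1 from limma, with their standard error (SE) and a p-value adjusted over all 10866 tested genes, and "called" means an adjusted p under 0.05. The mouse number pairs most libraries across groups, and no call on a member changed when the mouse was added as a block. That block fits CD138+ GSK-J4 replicate 4, which was matched to no mouse, exactly, so its group rests on replicates 1 and 2 there.

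Among the sensors, Ern1 had the lowest level in every group and the steepest rise across the cell states. Ern1 had 23.4, 25.7 and 23.5 RPKM in the CD138+ GSK-J4 libraries and 24.1, 21.6 and 23.9 in the CD138+ DMSO libraries. It had 7.77, 8.79 and 8.14 RPKM in the GL7+ GSK-J4 libraries, 8.44, 7.36 and 8.10 in the GL7+ DMSO libraries and 3.61, 4.28 and 3.55 in the naive libraries. The 3 cell states did not overlap, while the drug and solvent groups of each fraction did. In DMSO cultures CD138+ cells averaged 2.92-fold the GL7+ level (log2 change 1.43, SE 0.075, adjusted p = 1.2e-09) and 6.08-fold the naive level (2.33, SE 0.075, 4.1e-13).

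Atf6 and its paralog Atf6b also rose with culture, but at different steps. Atf6 had 84.1, 88.7 and 86.8 RPKM in CD138+ DMSO, 60.4, 57.3 and 60.7 in GL7+ DMSO and 22.3, 22.9 and 21.5 in naive libraries. Atf6b had 71.2, 78.4 and 74.0 RPKM in CD138+ DMSO, 37.9, 40.3 and 35.9 in GL7+ DMSO and 30.7, 29.7 and 30.4 in naive libraries. Most of the rise of Atf6 thus lay between naive and GL7+ cells (log2 change 1.38, adjusted p = 4.2e-13, against 0.53, 8.9e-08, between GL7+ and CD138+ cells), and most of that of Atf6b lay between GL7+ and CD138+ cells (0.95, 2e-08, against 0.32, 0.00043, for the step before). The ratio of Atf6 to Atf6b in a library was 1.13 to 1.18 in CD138+ DMSO, 1.42 to 1.69 in GL7+ DMSO and 0.707 to 0.770 in naive cells, with no overlap between the 3.

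Eif2ak3, the PERK kinase, was the flattest of the sensors. It had 33.8, 34.2 and 36.0 RPKM in CD138+ DMSO libraries, 24.9, 22.3 and 23.2 in GL7+ DMSO and 32.1, 30.7 and 28.8 in naive libraries. GL7+ cells were therefore lower than naive cells (log2 change -0.37, SE 0.055, adjusted p = 1.8e-05), with no overlap. CD138+ cells were higher than GL7+ cells (0.55, SE 0.055, 8.7e-07) and a little higher than naive cells (0.18, SE 0.055, 0.0079), the last no longer called after quantile normalization (0.08, adjusted p = 0.20). The ratio of Ern1 to Eif2ak3 was 0.632 to 0.713 in CD138+ DMSO, 0.330 to 0.350 in GL7+ DMSO and 0.112 to 0.139 in naive libraries.

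**Figure D2:**
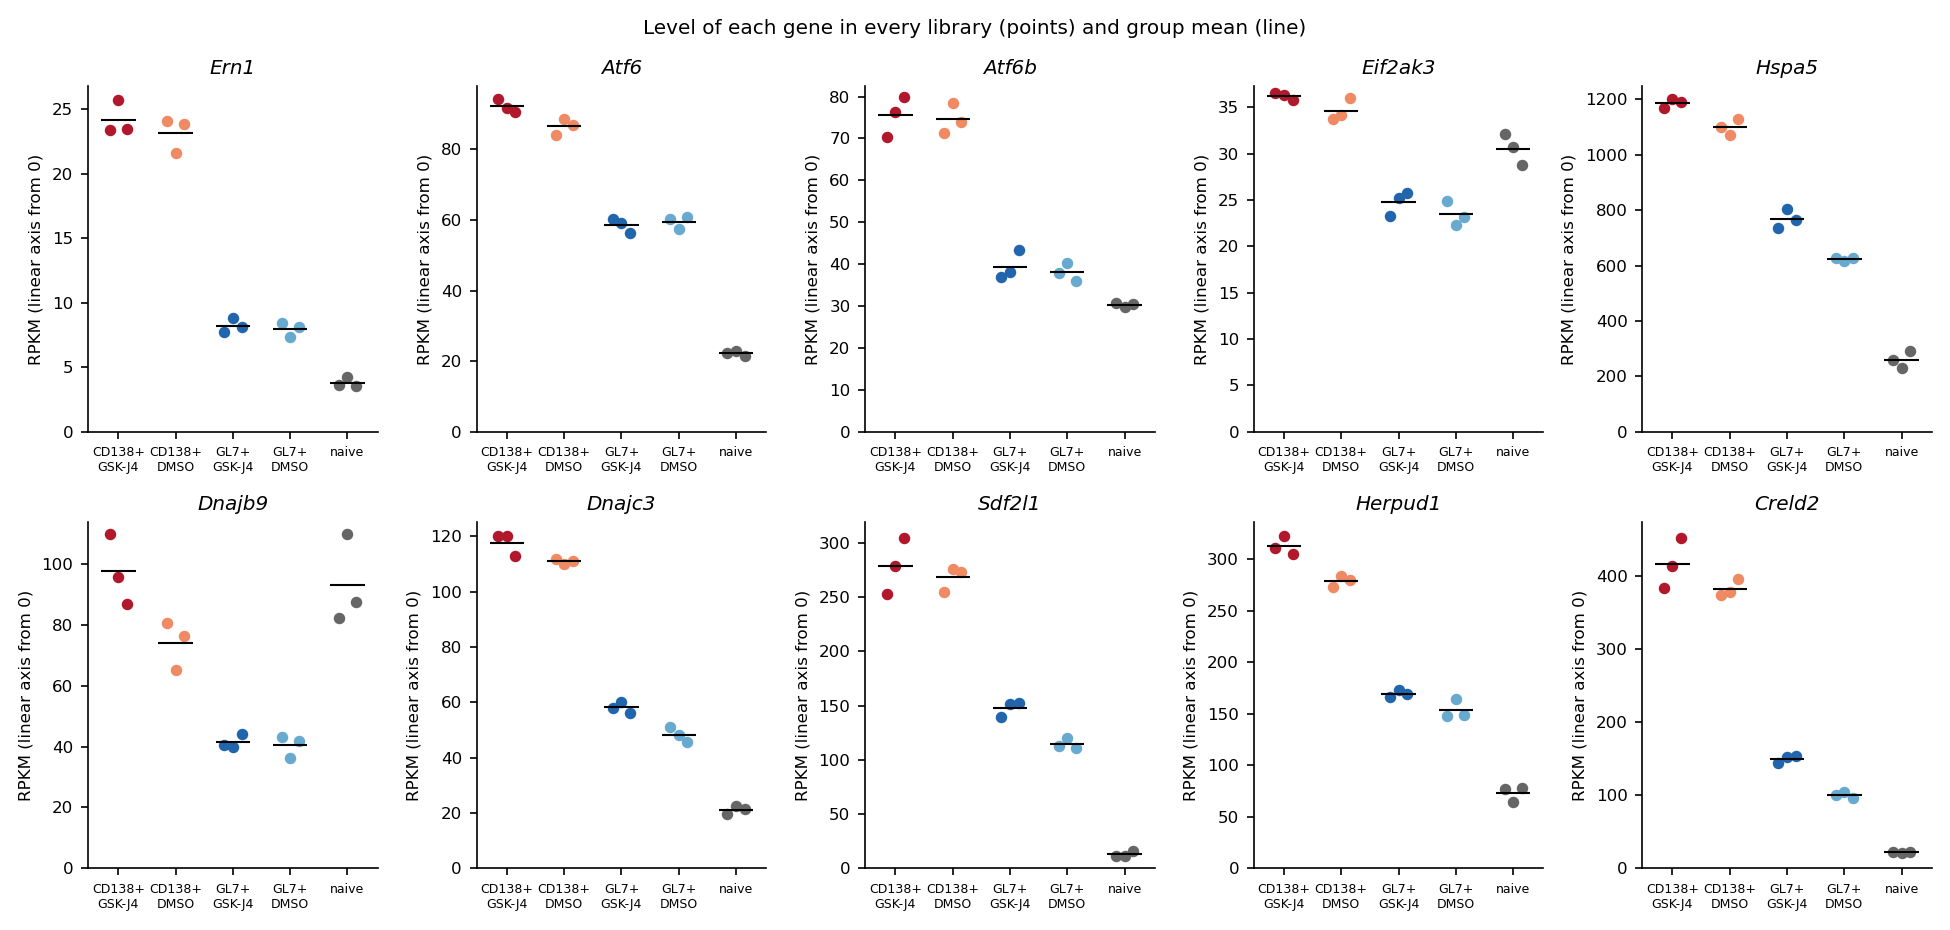
RPKM of each of the 10 genes in every library (points) with the mean of 3 libraries (line), on linear axes from 0; groups run from CD138+ GSK-J4 at the left to naive at the right. For 8 genes the order of cell states was CD138+, then GL7+, then naive, whereas Eif2ak3 and Dnajb9 were lowest in GL7+ cells.

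Hspa5 encodes BiP, the Hsp70 chaperone of the ER, and was the most abundant member in all 5 groups. It had 1100, 1070 and 1130 RPKM in CD138+ DMSO, 628, 618 and 626 in GL7+ DMSO and 260, 232 and 290 in naive libraries. CD138+ cells averaged 1.76-fold the GL7+ level (log2 change 0.82, SE 0.067, adjusted p = 1.1e-07) and 4.21-fold the naive level (2.08, SE 0.067, 3.9e-13). Of every 1000000 reads, the 6 targets together took 5160 to 5360 in CD138+ DMSO, 2670 to 2710 in GL7+ DMSO and 1160 to 1310 in naive libraries, and Hspa5 alone made up 57.9% to 68% of them across all libraries.

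Sdf2l1 and Creld2 had the largest differences between cultured and naive cells among the members. Sdf2l1, a partner of the ER chaperone DNAJB11, had 255, 276 and 273 RPKM in CD138+ DMSO, 113, 120 and 111 in GL7+ DMSO and 11.4, 11.6 and 15.6 in naive libraries. Creld2, an ER-resident protein induced by stress, had 374, 379 and 396 RPKM in CD138+ DMSO, 101, 104 and 96.4 in GL7+ DMSO and 22.8, 21.1 and 22.9 in naive libraries. Against naive cells the means were 20.8-fold for Sdf2l1 (log2 change 4.29, SE 0.095, adjusted p = 7.7e-15) and 17.2-fold for Creld2 (4.04, SE 0.058, 1.4e-16) in CD138+ cells. In GL7+ cells they were 8.90-fold (3.07, adjusted p = 4e-13) and 4.5-fold (2.12, 1.1e-13). In naive cells Creld2 stood below Atf6b and its range overlapped that of Atf6. In both CD138+ groups it was the second most abundant member, after Hspa5.

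Dnajc3, the BiP co-chaperone p58IPK, and Herpud1, a membrane component of the ubiquitin ligase complex that degrades ER proteins, were higher at each step too. Dnajc3 averaged 111 ± 1.28 RPKM in CD138+ DMSO, 48.3 ± 2.73 in GL7+ DMSO and 21.2 ± 1.34 in naive cells (SD, n = 3 each). Herpud1 averaged 279 ± 5.63, 154 ± 8.96 and 73.4 ± 7.45 RPKM in the same groups. Both were called in each step between these groups (log2 changes 0.86 to 1.18). The ratio of Herpud1 to Hspa5 stayed between 0.214 and 0.296 in all 15 libraries, that of Dnajc3 to Hspa5 was 0.0985 to 0.102 in CD138+ DMSO, 0.0729 to 0.0813 in GL7+ DMSO and 0.0741 to 0.0963 in naive cells, and that of Creld2 to Hspa5 was 0.340 to 0.353 in CD138+ DMSO, 0.154 to 0.168 in GL7+ DMSO and 0.0791 to 0.0910 in naive cells.

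In the comparisons with naive cells Dnajb9 went against the other targets. Between the DMSO fractions it was higher in CD138+ than in GL7+ cells, as they were (log2 change 0.86, adjusted p = 1.4e-05). Dnajb9 encodes ERdj4, a BiP co-chaperone that also helps BiP to hold IRE1 inactive. Dnajb9 had 80.6, 65.1 and 76.3 RPKM in CD138+ DMSO libraries, 43.2, 36.3 and 41.7 in GL7+ DMSO and 82.4, 110 and 87.4 in naive libraries. GL7+ cells thus averaged 0.434-fold the naive level (log2 change -1.18, SE 0.11, adjusted p = 1.4e-07), with no overlap. CD138+ DMSO cells were lower than naive cells too (-0.32, SE 0.11, 0.016), but this was not called without naive replicate 2 (-0.20, adjusted p = 0.084) or without CD138+ DMSO replicate 2 (-0.23, 0.084). The ratio of Dnajb9 to Hspa5 was 0.0607 to 0.0734 in CD138+ DMSO and 0.0587 to 0.0688 in GL7+ DMSO, against 0.302 to 0.473 in naive cells, where Dnajb9 was the second most abundant member.

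**Figure D3:**
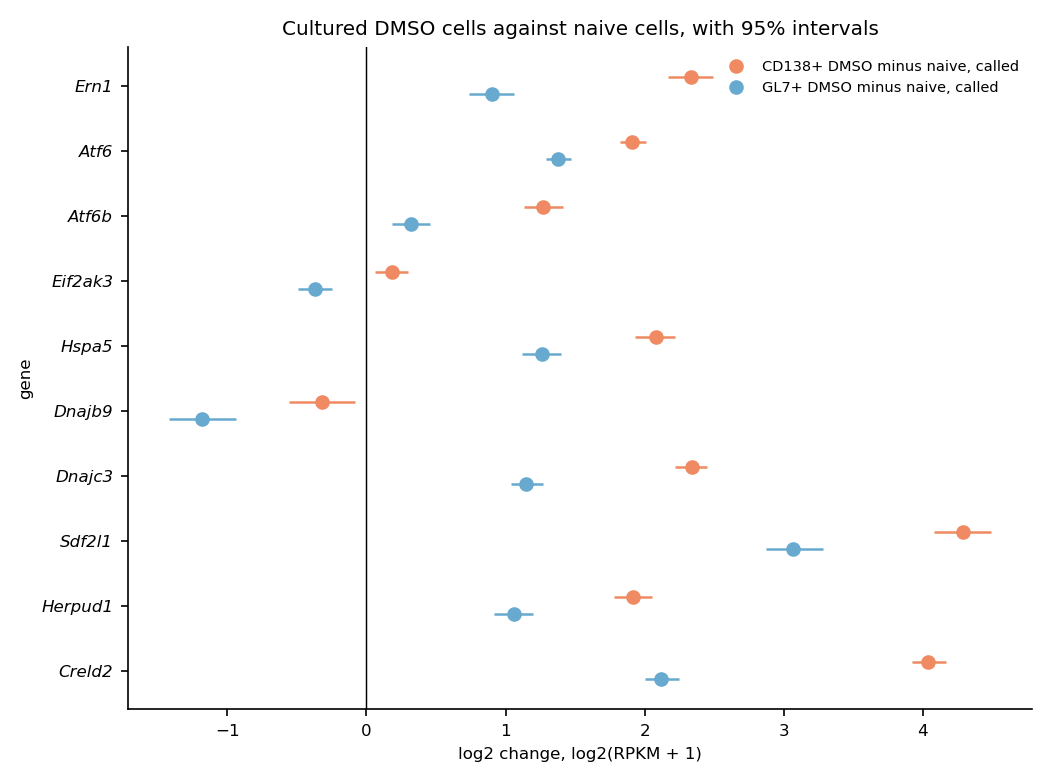
Log2 change of RPKM + 1 with its 95% interval for CD138+ DMSO (orange) and GL7+ DMSO cells (blue) against naive cells. Sdf2l1 and Creld2 lay farthest to the right in both, and Dnajb9 lay left of 0 in both.

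Counted together, 9 of the 10 members were higher and 1 lower in CD138+ DMSO against naive cells, where 39.9% of tested genes were called higher and 43.5% lower. In GL7+ DMSO cells 8 were higher and 2 lower, against 41.3% and 40.3% of tested genes. All 10 were higher in CD138+ than in GL7+ cells with DMSO, where 21.8% of tested genes were called higher and 36.9% lower, and all 10 again with GSK-J4, against 24% and 39%. The 3 comparisons among DMSO and naive groups share samples. The median log2 change of the 4 sensors was 0.75 and that of the 6 targets 1.02 in CD138+ against GL7+ DMSO cells, beside -0.10 over all tested genes. With GSK-J4 the largest differences between the fractions were those of Creld2 at 2.78-fold (log2 change 1.47, adjusted p = 8.3e-11), Ern1 at 2.94-fold (1.45, 8.4e-10) and Dnajb9 at 2.35-fold (1.21, 3.3e-07). With trimmed mean scaling the genes called in CD138+ against GL7+ cells with DMSO split as 3023 higher and 3067 lower instead of 2374 and 4005, and with GSK-J4 as 3291 and 3353 instead of 2611 and 4234, with all 10 members still higher.

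Most markers of other cells were highest in the naive group. The summed level of 9 myeloid markers was at most 4.35 RPKM in any cultured library, against 59.6 to 96.3 in naive libraries. Markers of erythroid cells and platelets (6 genes) summed to at most 9.74 RPKM in cultured libraries, against 70.4 to 86.2 in naive ones, and 9 of T cells to 5.51 to 15.2 RPKM, against 21.4 to 26.8. Within the T cell sum Cd28 went the other way, averaging 7.56 RPKM in CD138+ DMSO and 4.76 in CD138+ GSK-J4, against 0.388 in naive cells. The other T cell markers all had their highest mean in naive cells, Cd247 averaging 11.8 RPKM there against 6.59 in CD138+ DMSO. The 6 markers of NK cells summed to at most 0.485 RPKM in cultured libraries, against 3.93 to 9.23 in naive ones. The 7 dendritic cell markers summed to 6.13 to 34.8 RPKM in cultured libraries, a range that held the 27.4 to 32.7 of naive ones. Within that sum Flt3 averaged 31.6 RPKM in GL7+ DMSO and 6.35 in naive cells, and Batf3 2.05 and 1.54. Itgax, Clec9a, Xcr1, Zbtb46 and Siglech all had their highest mean in naive cells. Itgax averaged 14.1 RPKM there against 0.023 in GL7+ DMSO cells, and Clec9a 4.61 against 0. Of the defining markers, Cd3e was at 0 in every cultured library and Mpo too. The part of such cells in the naive levels of the members was not tested.

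Beyond the members, genes of the same pathway were read from fixed lists. Xbp1, whose transcript IRE1 splices and which is also 1 of the 8 plasmablast markers, averaged 839 ± 49.3 RPKM in CD138+ DMSO, 200 ± 8.90 in GL7+ DMSO and 40.7 ± 6.12 in naive cells, 20.6-fold higher in CD138+ than in naive cells (log2 change 4.34, adjusted p = 6.2e-15). Atf4, the factor downstream of PERK, averaged 304 ± 4.26, 313 ± 13.5 and 155 ± 5.62 RPKM in the same groups and did not pass the test between the fractions with DMSO (-0.04, adjusted p = 0.41), except after quantile normalization (-0.13, 0.0025). Ddit3, which encodes the stress factor CHOP, averaged 19.3 ± 0.674, 22.3 ± 1.10 and 36.9 ± 6.15 RPKM and was lower than naive in CD138+ cells (-0.89, 1.6e-06) and in GL7+ cells (-0.69, 2.4e-05). Ppp1r15a, which directs a phosphatase to eIF2α, was also lower in CD138+ than in naive cells (21.2 against 81.8 RPKM, log2 change -1.90, adjusted p = 2.2e-10). Of the 15 signalling genes of the arms, 4 were higher and 7 lower in CD138+ than in GL7+ DMSO cells, beside 21.8% and 36.9% of tested genes. The higher ones included Tmbim6, an ER membrane protein that restrains IRE1 (0.54, 2.8e-07), and Mbtps1, the site-1 protease that cuts ATF6 (0.46, 1.8e-06). The lower ones included Ppp1r15a (-1.04, 9.8e-07).

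The folding and degradation machinery of the ER moved with the members across cell states. Of 21 other ER chaperones and folding enzymes, 20 were higher and 0 lower in CD138+ than in GL7+ DMSO cells (median log2 change 1.28). Txndc5, a protein disulfide isomerase, averaged 635 against 148 RPKM (2.10, adjusted p = 2.9e-11). Dnajb11, another BiP co-chaperone, averaged 211 against 83.1 RPKM (1.33, 1.5e-10). Of 20 genes of ER-associated degradation, 19 were higher and 0 lower (median 0.89), among them Edem1, a lectin that extracts misfolded glycoproteins (1.82, 8.5e-11), and Sel1l, the adaptor of the HRD1 ligase (1.18, 6.8e-10). Against naive cells, CD138+ DMSO cells had 20 folding genes higher and 0 lower and 19 degradation genes higher and 1 lower, and Derl3, a channel component, averaged 175 against 3.99 RPKM (5.16, 2.3e-15). GL7+ DMSO cells against naive cells had 19 and 1 folding genes and 16 and 1 degradation genes.

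Lists outside the ATF6 and XBP1 targets did not share that direction in full. Of 12 tested heat shock genes outside the ER, cytosolic apart from the mitochondrial chaperones Hspd1 and Hspe1, 1 was higher and 7 lower in CD138+ than in GL7+ DMSO cells, Hsp90ab1 averaging 1060 against 1600 RPKM (log2 change -0.59, adjusted p = 5.7e-07). Of 11 tested targets of PERK and ATF4, 4 were higher and 3 lower, with Chac1, a glutathione-degrading enzyme, at 1.40 (1.5e-07) and Atf3, a stress-induced transcription factor, at -1.84 (1.8e-07). Against naive cells 10 of these 11 were higher and 1 lower in both fractions, Psat1 of serine synthesis by 4.45 in CD138+ (1.1e-15) and 4.33 in GL7+ DMSO cells (2.2e-15). Of 7 transcripts known to be cut by IRE1 only Bloc1s1 and Hgsnat passed the filter. Bloc1s1 averaged 16.7, 22.5 and 36.4 RPKM in CD138+ DMSO, GL7+ DMSO and naive cells and was lower in CD138+ than in GL7+ cells (-0.42, 0.0067) and in naive cells (-1.08, 5.2e-07). Hgsnat averaged 9.74, 7.90 and 7.31 RPKM in the same groups and was higher in CD138+ than in naive cells (0.40, 0.014), a call lost in the fit of the compared groups alone (0.069) and without CD138+ DMSO replicate 2 (0.059) or naive replicate 2 (0.19, 0.059). Among 6 tested relatives of the sensors, Creb3l2, an ATF6-like membrane factor, averaged 45.8, 9.24 and 2.17 RPKM, higher at each step (2.19, 8.3e-12, and 1.69, 2.2e-12), and the IRE1 paralog Ern2 was below the filter.

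The first drug comparison asked how the members differed in CD138+ cells cultured with GSK-J4. Only Dnajb9 was called, and it was higher. Dnajb9 had 110, 95.8 and 87.0 RPKM in CD138+ GSK-J4 libraries, against 80.6, 65.1 and 76.3 in CD138+ DMSO libraries. The groups did not overlap, whereas the drug group overlapped naive cells, whose libraries held 82.4 to 110 RPKM. The log2 change was 0.39 (SE 0.11, 95% interval 0.15 to 0.64, adjusted p = 0.033, higher in 3 of 3 libraries than any DMSO library). It was not called without the filter (adjusted p = 0.070), with quantile normalization (0.055), or when CD138+ GSK-J4 replicate 1 or 2 or DMSO replicate 2 or 3 was left out (log2 changes 0.31 to 0.42, adjusted p 0.067 to 0.14).

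The count of 1 called higher and 0 lower among 10 members stands beside 4.61% of tested genes called higher and 8.61% lower in CD138+ cells. With trimmed mean scaling the split of called genes was 658 higher and 794 lower, and with quantile normalization 613 and 700, instead of 501 and 936. With the mouse as a block it was 313 and 614. Herpud1 had 311, 323 and 305 RPKM in CD138+ GSK-J4 libraries, against 273, 284 and 280 in DMSO libraries, without overlap (log2 change 0.17, SE 0.064, adjusted p = 0.11). It was called with trimmed mean scaling (0.20, adjusted p = 0.046), with voom on reads recovered from the values (0.17, 0.027), with a fit of the compared groups alone (0.17, 0.015) and without naive replicate 2 (0.17, 0.016). Hspa5 had 1170, 1200 and 1190 RPKM with GSK-J4, against 1100, 1070 and 1130 with DMSO (0.11, SE 0.067, adjusted p = 0.31), and passed only in the fit of the compared groups alone (0.11, 0.042). Atf6 had 94.3, 91.8 and 90.5 RPKM with GSK-J4, against 84.1, 88.7 and 86.8 with DMSO, and Dnajc3 had 120, 120 and 113 RPKM with GSK-J4, against 112, 110 and 111 with DMSO. These ranges did not overlap either, but the changes of 0.09 (adjusted p = 0.20) and 0.08 (0.35) were not called. In all 5 members had their GSK-J4 libraries above all DMSO libraries, beside 14.4% of tested genes. Atf6b had 70.4, 76.4 and 80.0 RPKM with GSK-J4, against 71.2, 78.4 and 74.0 with DMSO, and Eif2ak3 had 36.6, 36.3 and 35.8 against 33.8, 34.2 and 36.0. The remaining members, Ern1, Atf6b, Eif2ak3, Sdf2l1 and Creld2, had changes of 0.02 to 0.12 with overlapping ranges and adjusted p of 0.20 to 0.89. For the sensors, of which 0 had an unadjusted p under 0.05 or a call by voom in either fraction, the 95% intervals ran from -0.12 at the lowest to 0.22 at the highest.

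In GL7+ cells, 4 targets were higher with GSK-J4. Creld2 changed most, with 144, 152 and 154 RPKM in GL7+ GSK-J4 libraries, against 101, 104 and 96.4 in GL7+ DMSO libraries. It was 1.49-fold higher without overlap (log2 change 0.57, SE 0.058, 95% interval 0.45 to 0.70, adjusted p = 8.5e-05), and its adjusted p stayed between 4.2e-07 and 0.00088 in 14 other settings. Hspa5 had 736, 805 and 765 RPKM with GSK-J4, against 628, 618 and 626 with DMSO (0.30, SE 0.067, adjusted p = 0.0098). Dnajc3 had 58.1, 60.2 and 56.3 RPKM with GSK-J4, against 51.0, 48.2 and 45.6 with DMSO (0.27, SE 0.053, 0.0054). Neither gene's groups overlapped. Hspa5 was not called without GL7+ GSK-J4 replicate 2 (0.27, adjusted p = 0.053).

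Sdf2l1 was the last of the 4, with 139, 151 and 152 RPKM in GL7+ GSK-J4 libraries, against 113, 120 and 111 in GL7+ DMSO libraries (log2 change 0.36, SE 0.095, adjusted p = 0.024). Its groups did not overlap. It was not called without the filter (adjusted p = 0.051), nor without GL7+ GSK-J4 replicate 2 or 3 or DMSO replicate 1 or 3 (0.33 to 0.35, adjusted p 0.079 to 0.085). Herpud1 had 166, 173 and 169 RPKM with GSK-J4, against 148, 164 and 149 with DMSO, also without overlap, and was not called (0.14, SE 0.064, 0.17) except without naive replicate 2 (0.14, 0.036). Dnajb9 had 40.6, 40 and 44.3 RPKM with GSK-J4, against 43.2, 36.3 and 41.7 with DMSO, and its ranges overlapped (0.04, 95% interval -0.20 to 0.29, 0.85). Atf6 had 60.2, 59.2 and 56.4 RPKM with GSK-J4, against 60.4, 57.3 and 60.7 with DMSO. Atf6b had 36.9, 38.1 and 43.3 RPKM with GSK-J4, against 37.9, 40.3 and 35.9 with DMSO, and Eif2ak3 had 23.3, 25.2 and 25.8 against 24.9, 22.3 and 23.2. These sensors and Ern1 had overlapping ranges, with changes of -0.02 to 0.07, intervals within -0.12 and 0.21 and adjusted p of 0.42 to 0.81.

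The 4 called higher and 0 lower of 10 stand beside 5.81% of tested genes called higher and 7.71% lower in GL7+ cells, and the 5 members without overlap beside 19.1% higher. Of every 1000000 reads the 6 targets together took 3180 to 3420 in GL7+ GSK-J4 libraries, against 2670 to 2710 in GL7+ DMSO libraries. Over all 5 groups, Hspa5, Dnajc3 and Herpud1 kept 1 order without any overlap between neighbours, CD138+ GSK-J4 above CD138+ DMSO, then GL7+ GSK-J4, GL7+ DMSO and naive. The share of tested genes with such an order was not counted. None of these genes was called with GSK-J4 in CD138+ cells (adjusted p = 0.31, 0.35 and 0.11), and Herpud1 was not in GL7+ cells (0.17). The median log2 change with GSK-J4 in GL7+ cells was 0.28 over the 6 targets and 0.05 over the 4 sensors, beside -0.01 over all tested genes.

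**Figure D4:**
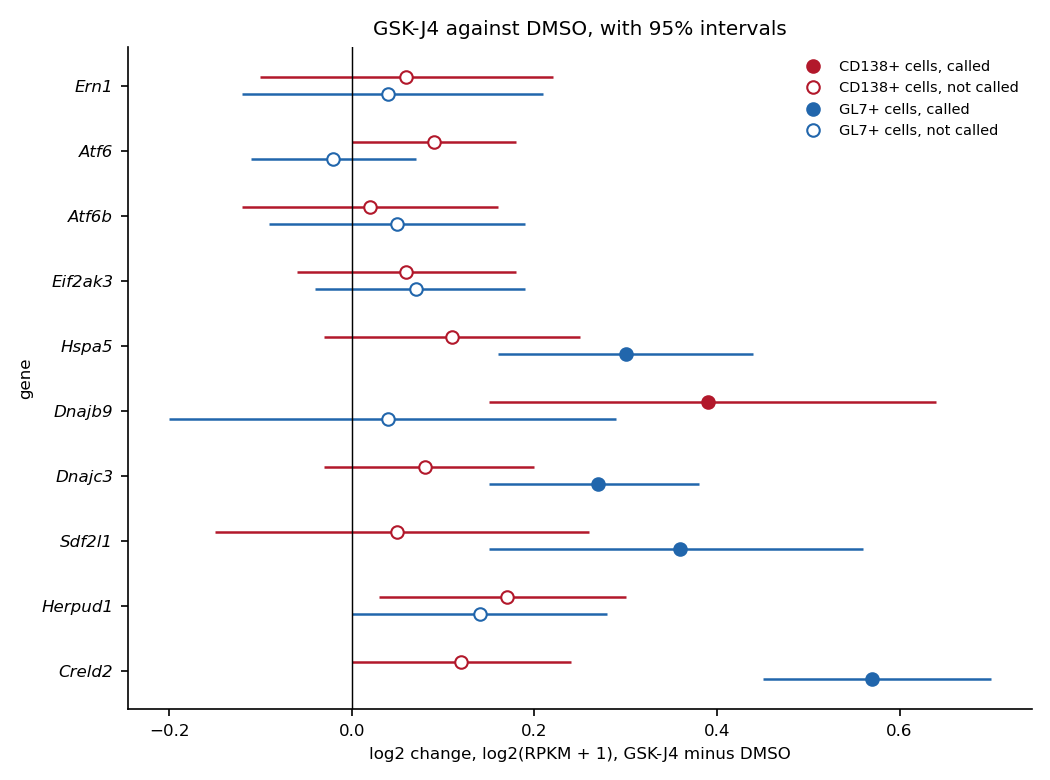
Log2 change of RPKM + 1 between GSK-J4 and DMSO with its 95% interval in CD138+ (red) and GL7+ cells (blue); filled points were called. The sensors lay near 0 in both fractions, Dnajb9 was the only filled point in CD138+ cells, and Hspa5, Dnajc3, Sdf2l1 and Creld2 were filled in GL7+ cells.

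Plasmablast markers moved with the result in GL7+ cells. Of 8 such markers 7 were higher and 0 lower with GSK-J4, with a median log2 change of 0.39, and their summed level was 1350 to 1500 RPKM in GL7+ GSK-J4 libraries, against 1110 to 1190 in GL7+ DMSO libraries. In CD138+ cells 2 of the 8 were higher (median 0.16), with sums of 4400 to 4650 RPKM with GSK-J4, against 3980 to 4210 with DMSO. Of 6 B cell markers 3 were lower with GSK-J4 in GL7+ cells and 5 in CD138+ cells, and 0 were higher. All 8 plasmablast markers were higher in CD138+ than in GL7+ DMSO cells. Their part in the changes of the members was not tested.

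Whether the fractions differed in their response was tested by the difference between the changes, CD138+ minus GL7+. Only Creld2 was called, where 0.322% of tested genes were called higher and 0.644% lower (35 and 70 genes, or 12 and 20 with the mouse as a block). Its change was smaller in CD138+ cells, 0.12 (SE 0.058), than in GL7+ cells, 0.57, a difference of -0.45 (SE 0.082, adjusted p = 0.022). The CD138+ libraries had 384, 414 and 452 RPKM with GSK-J4, against 374, 379 and 396 with DMSO, and these ranges overlapped. Leaving out any 1 CD138+ DMSO library, CD138+ GSK-J4 replicate 2, GL7+ GSK-J4 replicate 2 or 3 or GL7+ DMSO replicate 1 or 3 gave an adjusted p of 0.051 to 0.074 for the difference, with values of -0.43 to -0.47. For Dnajb9 the difference was 0.35 (SE 0.16, adjusted p = 0.36), for Sdf2l1 -0.30 (SE 0.13, 0.35), for Hspa5 -0.19 (SE 0.095, 0.41) and for Dnajc3 -0.18 (SE 0.075, 0.30). These genes were thus not shown to respond differently in the fractions. Hspa5 passed in the fit of the 4 cultured groups alone (-0.19, adjusted p = 0.044).

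Ratios to Hspa5 within a library, which were not tested, did not overlap between GSK-J4 and DMSO in GL7+ cells for Creld2, Dnajb9 and Herpud1. Those of Dnajc3 and Sdf2l1 overlapped, and the share of other genes with such ratios was not counted. Hspa5 itself was higher with GSK-J4 in GL7+ cells (log2 change 0.30), which lowers the ratio of any flatter gene. Dnajb9 (0.04) and Herpud1 (0.14) were not called there. The ratio of Creld2 to Hspa5 was 0.189 to 0.201 in GL7+ GSK-J4, against 0.154 to 0.168 in GL7+ DMSO libraries, and overlapped in CD138+ cells (0.330 to 0.380 with GSK-J4, against 0.340 to 0.353 with DMSO). The ratio of Dnajb9 to Hspa5 was 0.0497 to 0.0579 in GL7+ GSK-J4, against 0.0587 to 0.0688 in GL7+ DMSO libraries. In CD138+ cells it was 0.0730 to 0.0946 with GSK-J4, against 0.0607 to 0.0734 with DMSO, and the ranges overlapped. The ratio of Herpud1 to Hspa5 was 0.214 to 0.226 in GL7+ GSK-J4, against 0.235 to 0.265 in GL7+ DMSO libraries, and overlapped in CD138+ cells (0.256 to 0.268 with GSK-J4, against 0.248 to 0.265 with DMSO).

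Other genes of ER folding and degradation were higher with GSK-J4 as well. In GL7+ cells 11 of the 21 ER chaperones and folding enzymes were higher and 0 lower (median log2 change 0.21). Hsp90b1, the ER form of HSP90, averaged 1180 against 842 RPKM (0.49, adjusted p = 0.0013), Manf, a secreted ER stress protein, 179 against 133 (0.42, 0.0013), Dnajb11 108 against 83.1 (0.38, 0.00085) and Calr, the lectin chaperone calreticulin, 854 against 682 (0.32, 0.0021). Of the 20 degradation genes 5 were higher and 0 lower in GL7+ cells (median 0.11), Edem1 averaging 107 against 84.0 RPKM (0.35, 0.0061).

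In CD138+ cells 4 of the 21 folding genes were higher and 0 lower (median 0.12), and 0 of the 20 degradation genes were called. With voom on recovered reads the counts were 7 and 4, all higher. At an unadjusted p under 0.05 limma gave 5 degradation genes, all higher, of which Ube2g2, a ubiquitin-conjugating enzyme, came closest to a call (0.18, adjusted p = 0.051). Calr averaged 1750 RPKM with GSK-J4 against 1420 with DMSO (0.30, adjusted p = 0.0028), Dnajb11 246 against 211 (0.22, 0.016), Fkbp2, a prolyl isomerase of the ER, 156 against 133 (0.23, 0.028) and Hsp90b1 2860 against 2400 (0.25, 0.043). Calr kept its call in every setting run. Dnajb11 was not called without CD138+ GSK-J4 replicate 2 or 4 or DMSO replicate 1 or 2 (adjusted p 0.054 to 0.077), Fkbp2 was not without CD138+ GSK-J4 replicate 1 or 4 or any 1 DMSO library (0.064 to 0.096), and Hsp90b1 was not without any 1 of the 6 libraries (0.068 to 0.14). With the mouse as a block Fkbp2 (adjusted p = 0.085) and Hsp90b1 (0.13) were no longer called. Hsp90b1 also came to a log2 change of 0.00 after quantile normalization. The difference between fractions was called for 0 folding and 0 degradation genes, by limma and by voom alike, with 5 and 4 at an unadjusted p under 0.05, and Ero1lb, an oxidase that feeds disulfide bonds (-0.22, adjusted p = 0.13), came closest among the folding genes. In the fit of the 4 cultured groups alone Ero1lb (-0.22, 0.030) and Hyou1, an ER chaperone of the Hsp110 kind (-0.27, 0.047), were called.

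Xbp1 averaged 253 ± 16.9 RPKM in GL7+ GSK-J4, against 200 ± 8.90 in GL7+ DMSO cells (SD, n = 3 each), a called rise (log2 change 0.34, SE 0.094, adjusted p = 0.029). It was not called without the filter (0.060) or without GL7+ GSK-J4 replicate 2 or 3 or DMSO replicate 1 or 3 (0.088 to 0.11). In CD138+ cells it averaged 935 ± 71.0 with GSK-J4, against 839 ± 49.3 with DMSO (0.16, adjusted p = 0.32). The relative Creb3l2 was higher with the drug in GL7+ cells (11.3 against 9.24 RPKM, 0.26, adjusted p = 0.013), except without GL7+ GSK-J4 replicate 2 (0.066), and was not called in CD138+ cells (0.08, 0.41). The eIF2α kinase PKR (Eif2ak2), known as an interferon-induced gene, was higher in CD138+ cells (26.3 against 19.1 RPKM, 0.44, 0.0015) and in GL7+ cells (23.7 against 19.9 RPKM, 0.24, 0.041). The call in GL7+ cells was lost without the filter (0.067), with quantile normalization (0.088), with the block (0.071) and without any 1 of the 6 libraries (0.058 to 0.16).

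Targets of PERK and ATF4 that were called with GSK-J4 were all lower. In GL7+ cells 5 of 11 were lower and 0 higher with GSK-J4 (median log2 change -0.37), and in CD138+ cells 3 were lower and 0 higher (median -0.25). At an unadjusted p under 0.05 and by voom 1 was higher in each fraction. Vegfa, the angiogenic factor, averaged 87.2 against 70.9 RPKM in CD138+ cells (0.29, adjusted p = 0.076) and was called there by voom (0.30, 0.0042), in the fit of the compared groups alone (0.29, 0.0098) and without naive replicate 2 (0.29, 0.027). Trib3, a pseudokinase that feeds back on ATF4, averaged 8.49 RPKM with GSK-J4 against 15.2 with DMSO in GL7+ cells (-0.78, adjusted p = 0.0014) and 3.26 against 8.76 in CD138+ cells (-1.20, 4.6e-05). Cth, of cysteine synthesis, averaged 13.6 against 25.4 RPKM in GL7+ cells (-0.84, 0.001) and 9.21 against 16.1 in CD138+ cells (-0.74, 0.0019), neither of them called with a pseudocount of 0.1 (adjusted p = 0.18 and 0.23). In GL7+ cells the call on Ddit4 was lost without the filter and without GSK-J4 replicate 1 or 3 or DMSO replicate 1 or 2 (0.067 to 0.14). That on Sesn2 was lost with the pseudocount of 0.1, without the filter, and with trimmed mean scaling, quantile normalization or the block (0.054 to 0.082). It was also lost without GSK-J4 replicate 1 or 3 or DMSO replicate 2 or 3 (0.098 to 0.17). Ppp1r15a, from the signalling list, averaged 29.6 against 44.6 RPKM in GL7+ cells (-0.57, 0.0033). Atf4 itself was not called, at 289 against 313 RPKM in GL7+ cells (-0.11, 0.11) and 320 against 304 in CD138+ cells (0.08, 0.28). After quantile normalization Atf4 was called lower in GL7+ cells (-0.15, 0.0055). Ddit3 was not called in GL7+ (-0.23, 0.17) or CD138+ cells (-0.04, 0.86), but passed in GL7+ cells in the fit of the compared groups alone (-0.23, 0.047). Among the 12 tested heat shock genes outside the ER 1, Hspa4, was higher in GL7+ cells (101 against 87.4 RPKM, 0.21, 0.0023), with 3 higher at an unadjusted p under 0.05 and 4 by voom. Their median log2 change there was 0.15. In the fit of the compared groups alone Hspd1 (0.29, adjusted p = 0.003), Hsp90aa1 (0.22, 0.0076) and Hspa8 (0.16, 0.0082) were called higher too. The same genes were called without naive replicate 2 (0.00042 to 0.015). In CD138+ cells 0 were called, with 1 lower at an unadjusted p under 0.05 and 1 lower by voom. Hspd1 (-0.20, adjusted p = 0.0074) and Hsp90ab1 (-0.15, 0.031) were called lower there in the fit of the compared groups alone. For the difference between fractions 0 heat shock genes were called. In the fit of the 4 cultured groups alone Hspd1 (-0.49, 0.0011), Hsp90aa1 (-0.32, 0.0072) and Hspa4 (-0.23, 0.020) were called for it. The same 3 were called for it by voom (adjusted p = 0.01, 0.028 and 0.031) and without naive replicate 2 (0.0012, 0.036 and 0.023). Hspa4 was called for it also with the pseudocount of 0.1 (0.044) and without the filter (0.031). Of the signalling genes of the arms 2 were higher and 1 lower in GL7+ cells, and 1, Rtcb, the ligase that rejoins the cut Xbp1 transcript, was lower in CD138+ cells (-0.17, 0.024), not called with trimmed mean scaling (0.059), with the block (0.082) or without CD138+ GSK-J4 replicate 1 or any 1 DMSO library (0.051 to 0.098). Bloc1s1 and Hgsnat were not called in either fraction.

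**Figure D5:**
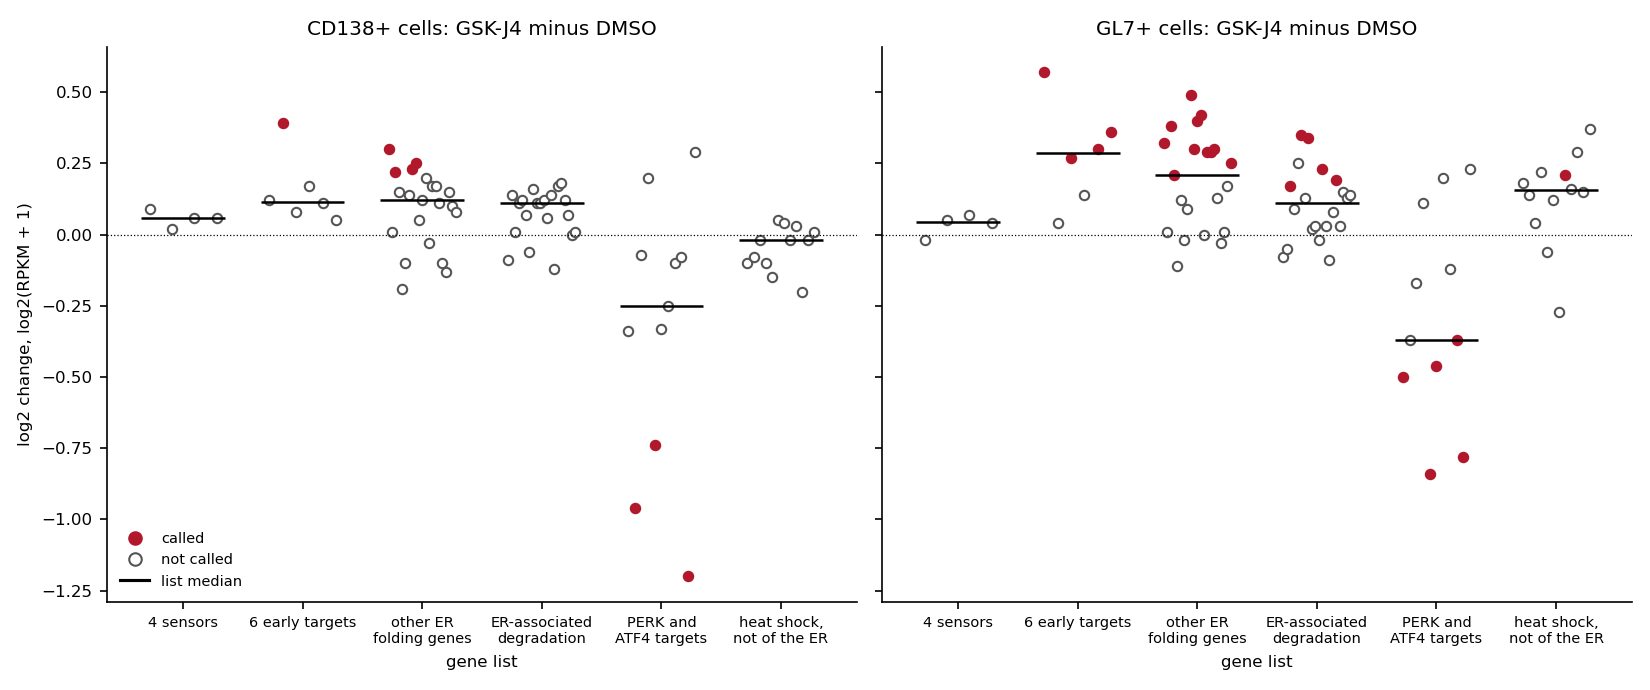
Log2 change between GSK-J4 and DMSO of the tested genes of 6 lists (points, filled where called) with list medians (lines), in CD138+ cells at the left and GL7+ cells at the right. The sensors lay near 0 in both, the 6 targets and other folding genes lay mostly above 0, and targets of PERK and ATF4 had the lowest medians.

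Across the 15 libraries the members differed in how closely their profiles matched. Pearson r of log2(RPKM + 1) was 0.82 to 0.99 among Ern1, Atf6, Atf6b, Hspa5, Dnajc3, Sdf2l1, Herpud1 and Creld2. Dnajb9 had an r of 0.88 with Eif2ak3 and of -0.19 to 0.36 with the other members, while Eif2ak3 had an r of 0.20 with Sdf2l1 to 0.71 with Atf6b. These values are descriptions over libraries that share 5 groups, so they mostly restate the group means. The 5 genes most like the mean standardized profile of the 6 targets were Cpeb3, a regulator of translation (r = 0.998), Calu, an ER calcium-binding protein, Pou2af1, a B cell coactivator, Pdia4, an ER disulfide isomerase, and Srpr, the signal recognition particle receptor (0.997 each). Pou2af1 is also 1 of the 8 plasmablast markers.

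The sensors each had their own closest genes. Those nearest to Ern1 included the ER-bound ubiquitin-conjugating enzyme Ube2j1 (r = 0.996) and Tram2, a protein of the ER translocation channel (0.995). Those nearest to Atf6 included Mgat2, of N-glycan synthesis, and Prdm1, the plasma cell factor Blimp-1 (0.996 each). For Atf6b they included Nucb1, a calcium-binding protein of the Golgi, and Kdelr1, the receptor that returns ER proteins (0.992 each). For Eif2ak3 the highest were Hsd11b1, Glcci1 and Bach1, at a lower r of 0.982 each, and these had GL7+ levels below naive levels as Eif2ak3 did. Bach1, a transcription factor of heme and oxidative stress genes, averaged 13.5 and 10.9 RPKM in CD138+ GSK-J4 and DMSO, 3.94 and 3.54 in GL7+ GSK-J4 and DMSO and 8.57 in naive cells.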

How the data were processed

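Per the file headers, the authors deposited RPKM (reads per kilobase and per 1000000 reads) for 21761 genes, with gene lengths in bases. The submitters' processing notes name TopHat2 and the mm9 build. The sources used here give no version, counting tool, annotation, strand setting or filters, so overlapping and antisense genes could not be told apart. The labels' protocols name Zymo Quick-RNA MicroPrep for extraction and the KAPA mRNA HyperPrep kit for libraries. A CD138+ GSK-J4 column headed 4 matched its group but no single sample. A labelled sample of that group had no column under its own number, and the sources do not say whether the column is its library. The column entered as replicate 4 with no mouse of its own.

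RPKM times length in kilobases summed to 1000000 per library, so values are relative to reads on these genes. Of values up to 20 reads, 100% were whole multiples of 1 read within 0.1 read, which gave each depth (median 9806592). Of the Entrez identifiers 21615 matched RefSeq names, 27 date-like symbols were restored and 92 genes kept an identifier.

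A gene was tested if 3 or more libraries reached 1 RPKM (10866 genes), on log2(RPKM + 1), which understates changes of low genes, with limma 3.58.1 in R 4.3.3. The 5 groups were fitted together, each with its own mean, and the variance followed a trend with level. Benjamini-Hochberg adjustment of p-values ran over every tested gene. With 3 libraries a group they rest on a spread between libraries pooled over all 5 groups, not on the compared groups alone. Scripts were tested on simulated data. Figures used matplotlib 3.10.9 in python 3.11.15.

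The members and lists were chosen with earlier results of these data known. Named genes were the 10 members, Xbp1, Atf4 and Ddit3, up to 4 genes with the smallest adjusted p of each pathway list in a comparison described, and the 5 genes with the highest r to each profile. The lists held 15 signalling genes, 21 folding genes, 20 degradation genes, 7 transcripts cut by IRE1, 12 PERK and ATF4 targets, 9 relatives of the sensors, 13 heat shock genes outside the ER and markers of 7 cell types.

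A replicate number marks 1 mouse in the labels, which pairs the samples. The deviation of each library from its group mean had a median r of 0.07 over 26 pairs of the same mouse (-0.04 to 0.19) and -0.03 over 52 pairs of different mice. The block with the mouse gave replicate 4 a level of its own, which fits that library exactly. Alternatives were a pseudocount of 0.1, no filter, trimmed mean scaling, quantile normalization, voom on recovered reads, the block, only the groups compared, each replicate left out and, chosen after seeing the data, leaving out naive replicate 2 in comparisons of cultured cells.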

Additional observations from a re-analysis of the deposited data

Results flagged for a closer look

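The response of Creld2 to GSK-J4 differed between the fractions by the test of the difference itself, with -0.45 on the log2 scale for CD138+ minus GL7+ cells (SE 0.082, adjusted p = 0.022 from limma). The change was 0.12 in CD138+ cells and 0.57 in GL7+ cells, where 3 of 3 GSK-J4 libraries exceeded every DMSO library. Over 20 other settings the difference was -0.51 to -0.40 with an adjusted p of 0.002 to 0.074.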

How the results depend on the processing

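Over all members, pathway genes and settings, 3666 values kept their direction and side of the threshold, 101 lost the call, 82 gained it and 0 changed direction while called. All 10 members stayed higher in CD138+ than in GL7+ cells under every setting run, with either treatment. The replicate block (mouse) left the count of members called at 1 in CD138+ cells with GSK-J4, 4 in GL7+ cells and 1 for the difference, and changed no call on a member. Among the pathway genes named by the rule it ended the GSK-J4 calls on Fkbp2, Hsp90b1 and Rtcb in CD138+ cells and on Ube2g2, Sesn2 and Eif2ak2 in GL7+ cells, and that on Hgsnat in CD138+ against GL7+ cells with GSK-J4 (0.38, adjusted p = 0.070).

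The count for GSK-J4 in CD138+ cells was 0 without the filter on low values and with quantile normalization, 2 with trimmed mean scaling, with voom on recovered reads and without naive replicate 2, 3 with only the groups compared, and 0 to 1 with 1 replicate left out. In GL7+ cells it was 2 to 5 with 1 replicate left out, the lowest without GL7+ GSK-J4 replicate 2 and the highest without naive replicate 2. For the difference it was 2 with only the groups compared and 0 to 1 with 1 replicate left out. Over all tested genes voom on recovered reads called 1202 higher and 1412 lower in GL7+ cells, instead of 631 and 838, and 125 and 305 for the difference, instead of 35 and 70. Without the filter the difference was called for 17 and 36. With the block it was called for 12 and 20, and GSK-J4 in CD138+ cells for 313 and 614 genes instead of 501 and 936. Without the filter more genes (17618) enter the adjustment. The causes of the other shifts were not tested.

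Depth limits Sdf2l1, Ern1 and Creld2 most in naive replicate 2. With 3 libraries a group, a change missing the threshold is not shown to be absent.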
